A study of Drosophila melanogaster with 2 samples.

Results

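The proteasome genes of Drosophila melanogaster and their duplicated copies were examined for binding of CG17829, a zinc finger protein that the gene annotation names Hinfp, near their transcription start sites (TSSs). Members were the protein-coding genes whose symbol starts with Prosalpha, Prosbeta, Rpn or Rpt followed by a digit. They numbered 48 of 13945 protein-coding genes. Symbols that end in T or R, with or without a further digit, marked the paralogs (16 genes), and the other 32 genes were the canonical subunits. Prosalpha4T1 and Prosalpha4T2 were placed with the paralogs because T stands before the last digit. The rule reads symbols and no measured value, though it was set with earlier results of these data known.

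The proteasome is the ATP-dependent protease that destroys ubiquitin-tagged proteins in the cytoplasm and nucleus of every cell. Its barrel-shaped 20S core has outer rings of alpha subunits, which gate the entry, and inner rings of beta subunits, which hold the proteolytic sites. The 19S regulatory particle binds tagged proteins, removes the ubiquitin in its lid and unfolds the protein with the ATPases of its base. Drosophila also carries duplicated subunit genes, and several of them, such as Prosalpha6T and Prosalpha3T, are known for expression in the male germ line.

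An antibody against GFP was used for chromatin immunoprecipitation followed by sequencing (ChIP-seq) of whole Drosophila embryos of both sexes, aged 0 to 24 hours. The embryos came from 1 transgenic line that stably expresses CG17829 with GFP at its C terminus, and the insertion targets CG17829. There was 1 group, with 2 biological replicates numbered 2 and 4 that the labels list as separate biosamples, and there was no second genotype, treatment or age. A signal in whole embryos cannot separate binding in few cells from weaker binding in many. The lists hold no measure of expression, so the naming of the paralogs after the testis could not be checked against these data, and they are called paralogs here.

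The authors deposited 4 lists of peaks in the dm6 build, which are 1 for each replicate, 1 for the replicates together (the pooled list) and 1 of reproducible peaks, kept by the irreproducible discovery rate (IDR), which scores the repeat of peak ranks between replicates. The replicate and pooled lists held 30000 peaks each. The IDR list held 7915 peaks, which were the strongest 7915 of the pooled list, so a gene's rank in the IDR list is also its rank in the pooled list. The signal value of a peak is the authors' own and was read within a list only. In the IDR list it ran from 137.9 to 5569 with a median of 241.3. The depth of the libraries is unknown, and no counting interval could be given for a single peak. A gene was counted as bound where the summit of a peak, its highest point, lay within 250 bp of one of its TSSs.

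The sequence around the summits is shown for 4 leading bound members. They are the lid subunit Rpn3, the trypsin-like core subunit Prosbeta2, the lid deubiquitinase Rpn11 and the base scaffold Rpn2. Rpn7, a lid subunit with a weaker summit, was added after its composition was seen. The 5 do not stand for the composition of leading summits in general, since Rpn6 and Prosbeta1, which rank among them and are not printed because of the chromosome arm they lie on, had 61.4% and 58.4% A or T. The windows reach 50 bases to each side of the IDR summit, without annotated exons, which shortens that of Rpn3. Its summit lay 12 bp past the start, in an exon, so the printed Rpn3 bases end before the summit and do not hold it. They were read from the RefSeq sequence of dm6 on the strand of the gene and hold neither TATCGATA nor GGTCACAC.
Rpn3 (2L:19051752-19051789, plus strand, 73.7% A or T): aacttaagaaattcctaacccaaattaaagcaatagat
Prosbeta2 (3L:14999739-14999839, plus strand, 75.2% A or T): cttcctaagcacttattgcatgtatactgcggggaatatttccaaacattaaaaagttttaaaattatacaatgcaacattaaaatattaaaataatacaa
Rpn11 (2L:5059847-5059947, minus strand, 74.3% A or T): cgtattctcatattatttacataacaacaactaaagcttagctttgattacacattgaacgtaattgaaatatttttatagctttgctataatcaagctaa
Rpn2 (3R:29153306-29153406, plus strand, 69.3% A or T): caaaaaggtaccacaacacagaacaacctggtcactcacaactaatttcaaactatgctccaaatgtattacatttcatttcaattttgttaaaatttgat
Rpn7 (3R:22462251-22462351, minus strand, 78.2% A or T): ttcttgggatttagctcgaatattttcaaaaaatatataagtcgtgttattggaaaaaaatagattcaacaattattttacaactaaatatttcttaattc

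The next pair comes from weaker summits that lay close to the start, and shows the DNA replication-related element (DRE), the site of the core promoter factor DREF. Capitals mark TATCGATA. Only bases outside annotated exons are printed, so these windows are shorter.
Prosalpha6 (2L:10221300-10221350, plus strand, 54.9% A or T): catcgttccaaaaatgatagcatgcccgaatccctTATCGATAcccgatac
Prosbeta6 (3L:16610419-16610489, minus strand, 54.9% A or T): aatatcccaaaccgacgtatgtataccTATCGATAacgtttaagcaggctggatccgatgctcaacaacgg

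The last set compares the 100 bases before the start of Prosbeta2 with those of its paralogs. Capitals again mark TATCGATA, which ends 3 bases before the start in Prosbeta2 and is in neither paralog's stretch.
Prosbeta2 (3L:14999851-14999950, plus strand, 77% A or T): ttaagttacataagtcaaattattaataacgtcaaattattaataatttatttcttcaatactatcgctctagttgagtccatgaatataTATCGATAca
Prosbeta2R1 (X:5808854-5808953, plus strand, 73% A or T): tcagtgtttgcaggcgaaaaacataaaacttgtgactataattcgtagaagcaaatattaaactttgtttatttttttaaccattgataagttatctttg
Prosbeta2R2 (3R:5219529-5219628, minus strand, 59% A or T): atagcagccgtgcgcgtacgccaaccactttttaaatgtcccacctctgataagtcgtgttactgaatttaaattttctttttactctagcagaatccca

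Most canonical proteasome genes had a CG17829 summit at the start, and no paralog had one in the IDR list. The IDR list held a promoter summit for 26 of 32 canonical genes (81.2%) and for 0 of 16 paralogs. The background was 31.7% of all protein-coding genes (4416 of 13945, exact Clopper-Pearson 95% interval 30.9 to 32.4%). A count of 0 of 16 allows a share of up to 18.75%, taking 3 counts of the total as the limit, and the exact Clopper-Pearson upper bound is 20.6%. Interval and limits cover counting error only. Genes are not independent replicates, and with 1 group no condition could be compared.

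The longer lists kept this order. The pooled list held a promoter summit for 29 canonical genes (90.6%) and 2 paralogs (12.5%), against 48.9% of all protein-coding genes. In the replicate 2 list 28 canonical genes (87.5%) and 2 paralogs were bound, beside 49.3% of the background. In the replicate 4 list it was 29 canonical genes and 1 paralog (6.25%), beside 48.5%. In each of the 4 lists the canonical share was above and the paralog share below that of all protein-coding genes.

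**Figure D1:**
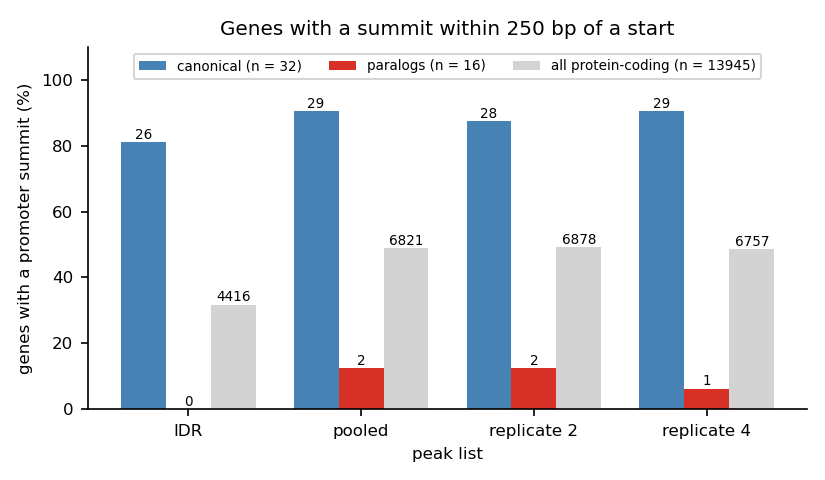
Share of genes with a summit within 250 bp of a TSS (vertical axis, percent) in each of the 4 peak lists (horizontal axis), for canonical proteasome genes, paralogs and all protein-coding genes. Each bar is 1 list and carries its number of genes; canonical bars run from 81.2 to 90.6%, and paralog bars from 0 to 12.5%.

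Summits were listed in every subcomplex, with the smallest share at the ATPases of the base. The IDR list had summits at 6 of 7 alpha genes, 6 of 7 beta genes, 3 of 6 base ATPase genes, 4 of 4 other base genes and 7 of 8 lid genes. In the pooled list the ATPases rose to 5 of 6 and the lid to 8 of 8, beside 48.9% of all protein-coding genes. The signals were of middle strength. The median rank of the 26 bound genes was 4562.5, with a range of 937 to 7690, while the median over all bound protein-coding genes was 3636, so the canonical genes were bound often, but their middle gene stood further down the list.

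In the alpha ring, the 6 bound genes held neighbouring ranks. Prosalpha7 was at rank 3657 of the IDR list, with ranks 3964 in replicate 2 and 4078 in replicate 4. Prosalpha3 stood at rank 3693 (3563 and 4784 in replicates 2 and 4). Prosalpha5 was at 4908, with 5835 in replicate 2 and 5199 in replicate 4. These genes encode structural subunits of the gated ring. Prosalpha4 had rank 4922 (5464 and 4757 in the same order). For Prosalpha2 the ranks were 5306, 4742 and 6845, and for Prosalpha6 they were 5471, 5450 and 4566 in the IDR, replicate 2 and replicate 4 lists. The alpha genes thus spanned IDR ranks 3657 to 5471. The 3 bound base ATPase genes had a similar span, from 3942 to 5727, while the beta ring (1589 to 7116) and the lid (937 to 6550) were spread more widely. The signals of the bound alpha genes ran from 190.3 at Prosalpha6 to 254.2 at Prosalpha7. Prosalpha7 and Prosalpha3 (252.3) were above the list's median of 241.3, and the other bound alpha genes were below it.

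Prosalpha1 was the alpha gene with no promoter summit in any list, and its nearest IDR summit lay 3303 bp away. Its start is not single-copy. The paralog Prosalpha1R starts 3093 bp away on the same arm and encodes a protein of 100% identity, and none of the 32-base words within 250 bp of either start occurs once on the 6 chromosome arms (0% for each). Reads from either start could have come from both, so a missing summit at this pair does not show missing binding. Rpn3 had 78.3% single-copy words around its start and Rpt6 99.4%, and all other members had 100%. Counted without genes under 90%, the IDR list held 25 of 30 canonical genes (83.3%), 0 of 15 paralogs and 32.7% of all protein-coding genes.

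In the beta ring, the proteolytic subunits were spread widely. Prosbeta2, the trypsin-like subunit (FBgn0023174, 3L:14999951-15001319), had the strongest summit of the 20S core at rank 1589, with 1466 in replicate 2 and 1711 in replicate 4, and its IDR signal was 433.1. Prosbeta1, the caspase-like subunit, was at rank 2405 (2675 and 2277). Prosbeta5, the chymotrypsin-like subunit, was at rank 5428, and its replicate ranks differed most among the 25 bound members with a promoter summit in both replicates. It stood at rank 3890 in replicate 2 and 8875 in replicate 4, a ratio of 2.28. The structural subunits were lower in the IDR list than Prosbeta1 and Prosbeta2. Prosbeta3 had rank 4575 (6387 in replicate 2 and 3339 in replicate 4), Prosbeta7 had rank 6741 (5584 and 8491) and Prosbeta6 had rank 7116 (8448 and 5438). Prosbeta4 had no promoter summit in any list. Its nearest pooled summit lay 319 bp from the start, with 323 bp in replicate 2 and 318 bp in replicate 4, just outside the limit of 250 bp, and its nearest IDR summit was 4243 bp away.

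**Figure D2:**
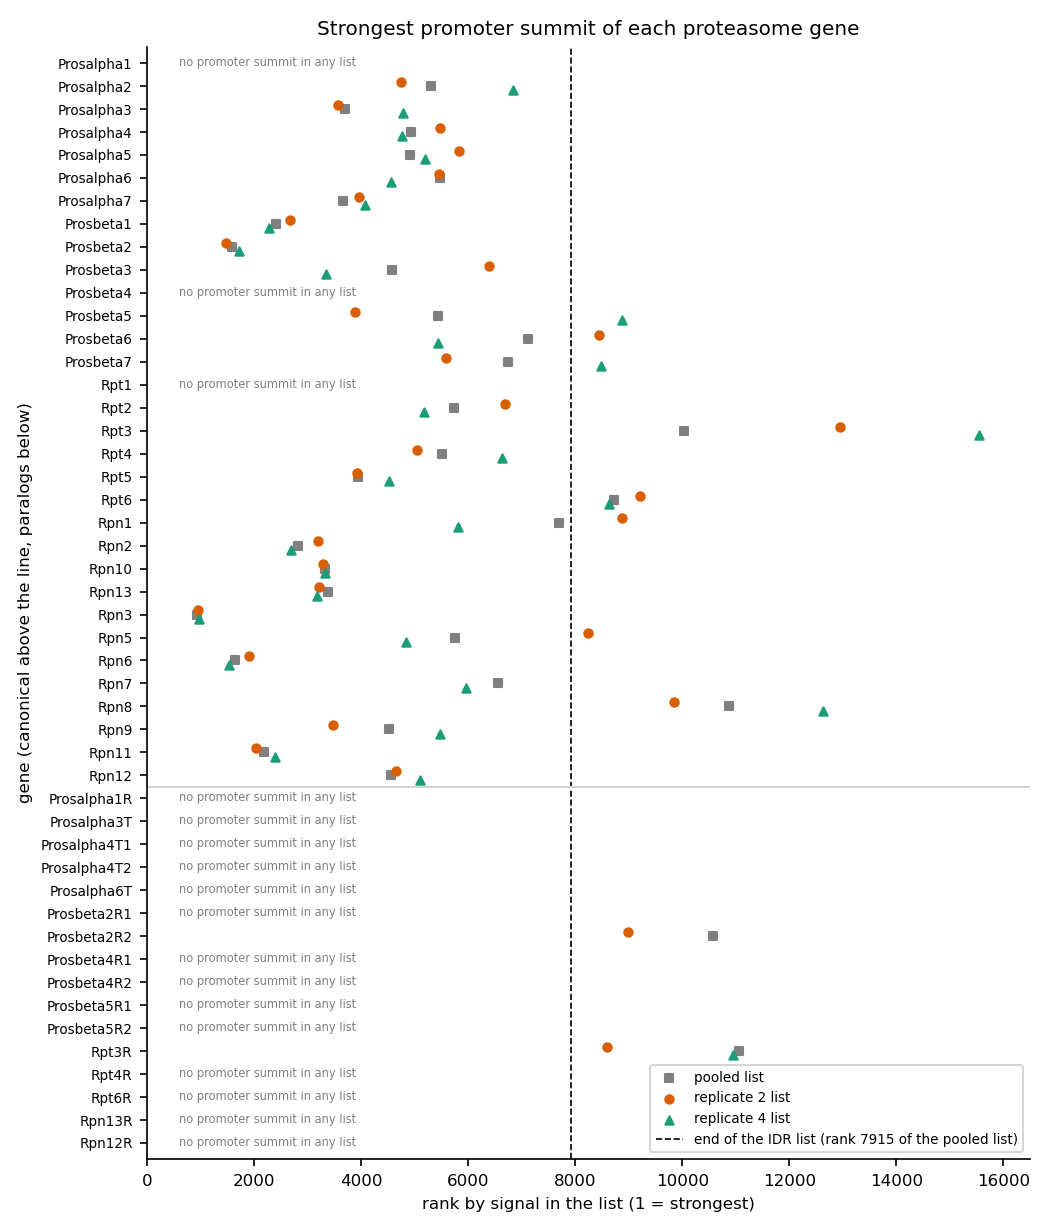
Rank of the strongest promoter summit of each of the 48 genes (horizontal axis, 1 is strongest) in the pooled, replicate 2 and replicate 4 lists, with canonical genes above the grey line and paralogs below it. The dashed line is the end of the IDR list at rank 7915; 26 canonical genes and 0 paralogs have a pooled point to its left.

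The base ATPases, which unfold the substrate, had 3 members in the IDR list and 3 outside it. Rpt5 was at rank 3942 (3918 in replicate 2 and 4527 in replicate 4), Rpt4 at 5502 (5049 and 6625) and Rpt2 at 5727 (6680 and 5177). Rpt6 missed the IDR list. Its pooled summit had rank 8722 and signal 125.4, below the IDR list's lowest signal of 137.9, with ranks 9208 in replicate 2 and 8634 in replicate 4. Rpt3 was lower still, at pooled rank 10037, with 12958 in replicate 2 and 15546 in replicate 4. Rpt1 had no promoter summit in any list, and the nearest IDR or pooled summit lay 11640 bp away. Rpt1 was the canonical member farthest from any pooled summit. It lies within the annotated span of CG17985.

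All 4 other base genes were bound. Rpn2, a scaffold of the base, was at rank 2810 (3189 in replicate 2 and 2682 in replicate 4). The ubiquitin receptors Rpn10 and Rpn13 stood side by side. Rpn10 had ranks 3320, 3283 and 3322 in the IDR, replicate 2 and replicate 4 lists, and Rpn13 had 3375, 3210 and 3176. Rpn1, the scaffold that binds ubiquitin-like shuttle factors, had the weakest IDR summit of all members at rank 7690, with 8875 in replicate 2 and 5809 in replicate 4. The replicate ranks of Rpn10 and of Rpn13 thus differed by a ratio of 1.01 each, and those of Rpn1 by 1.53.

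The lid held the strongest member. Rpn3 (FBgn0261396, 2L:19051790-19053681) led all proteasome genes at rank 937, with 946 in replicate 2 and 973 in replicate 4 and an IDR signal of 589.7. Rpn6 was at rank 1645 (1895 and 1527), just behind the beta gene Prosbeta2. Rpn11, the metalloprotease that removes ubiquitin chains (FBgn0028694, 2L:5058404-5059790), was at rank 2178 (2026 and 2380). The replicate ranks of Rpn3, Rpn6 and Rpn11 differed by ratios of 1.03, 1.24 and 1.17, though the replicate summits of Rpn11 lay 111 bp apart. Rpn9 had rank 4515 (3475 in replicate 2 and 5481 in replicate 4), Rpn12 had 4550 (4658 and 5105) and Rpn5 had 5747 (8239 and 4845). Except for the deubiquitinase Rpn11, these are lid subunits with a PCI domain. Rpn7, of the same class, rested on 1 replicate. It had IDR rank 6550 and rank 5966 in replicate 4, but in replicate 2 its nearest summit lay 269 bp from the start, outside the limit. Its IDR summit was 247 bp away, just inside. Rpn8, the partner of Rpn11, was just outside, with its nearest IDR summit 262 bp away. A weaker summit 43 bp from a start of Rpn8 had pooled rank 10868, with 9840 in replicate 2 and 12634 in replicate 4.

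The replicates ranked the bound genes about as closely as other genes. Of the 26 genes, 25 had a promoter summit in both replicate lists. The ratio of the worse to the better rank had a median of 1.19, and it was under 1.5 in 18 of the 25. Over 4307 protein-coding genes the median was 1.28, and 70.3% were under 1.5. Neither replicate favoured the group, since 13 genes ranked better in replicate 2 and 12 in replicate 4. Summits of the replicates lay a median of 24 bp apart, with the largest distance of 111 bp at Rpn11. For the background the median was 26 bp.

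Only 2 paralogs had a promoter summit in any list, and both summits were weak. Prosbeta2R2 had a pooled summit at rank 10576 with signal 102.0, 131 bp upstream of its start, and a replicate 2 summit at rank 8988. In replicate 4 its nearest summit was 284 bp away. The start of CG1116 lay 2 bp from that pooled summit, on the opposite strand, so the summit was far nearer to the neighbour. Rpt3R had a pooled summit at rank 11065 with signal 96.7, and ranks 8603 in replicate 2 and 10941 in replicate 4. Its pooled summit lay 7 bp from the start of Rpt3R and 12 bp from the start of Alg12 on the opposite strand. So in both cases a divergent gene shared the summit.

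The other 14 paralogs had no promoter summit in any list. In the alpha group these were Prosalpha1R, Prosalpha3T, Prosalpha4T1, Prosalpha4T2 and Prosalpha6T, and in the beta group Prosbeta2R1, Prosbeta4R1, Prosbeta4R2, Prosbeta5R1 and Prosbeta5R2. Those of the 19S particle were Rpt4R, Rpt6R, Rpn12R and Rpn13R. Most paralogs were far from any summit. The nearest IDR summit to any of the 16 paralogs lay a median of 24454 bp away (range 2027 to 131382 bp), beside 92 bp for canonical genes and 2717 bp for all protein-coding genes. In the pooled list the medians were 10832.5 bp, 51.5 bp and 274 bp in the same order. Within 5000 bp, the IDR list held a summit for 31 canonical genes (96.9%), 2 paralogs (12.5%) and 60.1% of all protein-coding genes. Paralogs were thus farther from summits than the average gene in both lists.

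**Figure D3:**
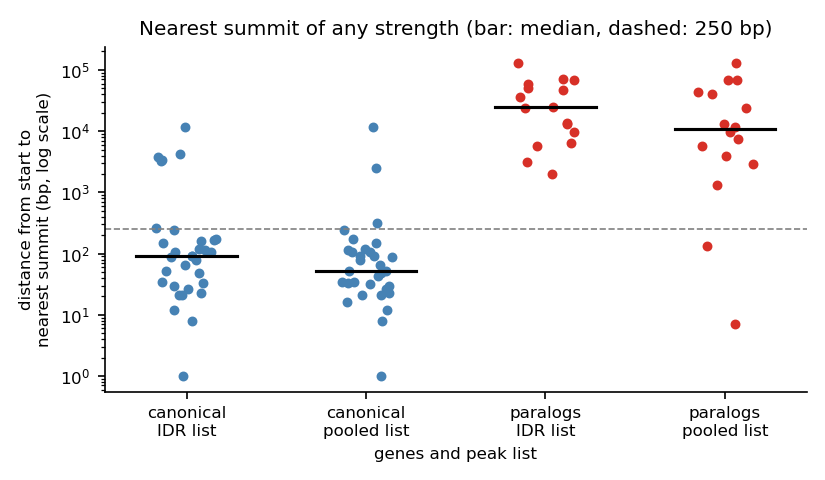
Distance from each gene's TSS to the nearest summit of any strength (vertical axis, bp, log scale) for the 32 canonical genes and the 16 paralogs in the IDR and pooled lists. Each point is 1 gene, the bar is the median and the dashed line is 250 bp; the IDR medians are 92 bp for canonical genes and 24454 bp for paralogs.

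The paralogs ranged from identical to distant copies. Protein identity in a global alignment had a median of 60.4% over 16 pairs, from 37.5% for Rpn13R to 100% for Prosalpha1R. The closest after Prosalpha1R was Rpt6R at 88.9%, followed by Rpt3R at 82.0% and Rpt4R at 81.9%. Of these, Rpt3R alone had a promoter summit. Prosbeta2R2 was 43.3% identical to Prosbeta2, so both near and distant copies were among the genes with and without a summit. A single exon was found in 6 of 16 paralogs (37.5%), in 4 of 32 canonical genes (12.5%) and in 15.2% of all protein-coding genes. Over all protein-coding genes, 15.0% of single-exon genes and 34.7% of genes with more exons were bound in the IDR list. Among genes with 2 or more exons, 0 of 10 paralogs and 23 of 28 canonical genes were bound. Among single-exon genes it was 0 of 6 paralogs and 3 of 4 canonical genes. The single-exon class is small, and 0 of 6 paralogs is close to the 15.0% of all single-exon genes. Whether exon number bears on the difference between canonical genes and paralogs was not tested. Prosalpha4T1 lies within CG42322, Rpn12R within Sytbeta and Rpn13R within CG15465 and rg, as annotated.

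The bound members were not limited to 1 chromosome. The IDR list held summits at 3 of 4 canonical genes on 2L, 7 of 10 on 2R, 5 of 5 on 3L, 9 of 9 on 3R and 2 of 4 on X. Paralogs lie on the same arms, with 4 on 2L, 3 on 2R, 2 on 3L, 5 on 3R and 2 on X.

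Summits lay just upstream of the starts. The median position of the 26 IDR summits was -71.5 bp, where a minus sign means upstream, and positions ran from -247 bp at Rpn7 to 12 bp downstream at Rpn3, the only one downstream of its nearest start. The summits of Prosbeta7, Rpn6, Rpn9, Rpn10 and Rpt2 lay upstream of an inner start and downstream of the outermost one, so they too fell inside the annotated gene. Upstream summits made up 96.2%, beside 86.0% of all bound protein-coding genes, whose median was -86 bp. Within 100 bp of a start were 17 of 26 (65.4%), beside 53.8%. By subcomplex, the 3 base ATPases had a median of -33 bp and the beta ring of -39 bp, while the lid had -107 bp, with 2 of its 7 summits within 100 bp. In the replicate 2 list the lid's signed median was -75 bp. It was -77.5 bp in the alpha ring, -93.5 bp in the other base genes, -50 bp in the beta ring and -40 bp in the base ATPases. That lid value includes Rpn9 at 219 bp downstream of its outermost start. Without regard to direction, the lid's median distance in replicate 2 was 106 bp, the largest of these groups. In the replicate 4 list the lid was again farthest upstream, at -94 bp.

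**Figure D4:**
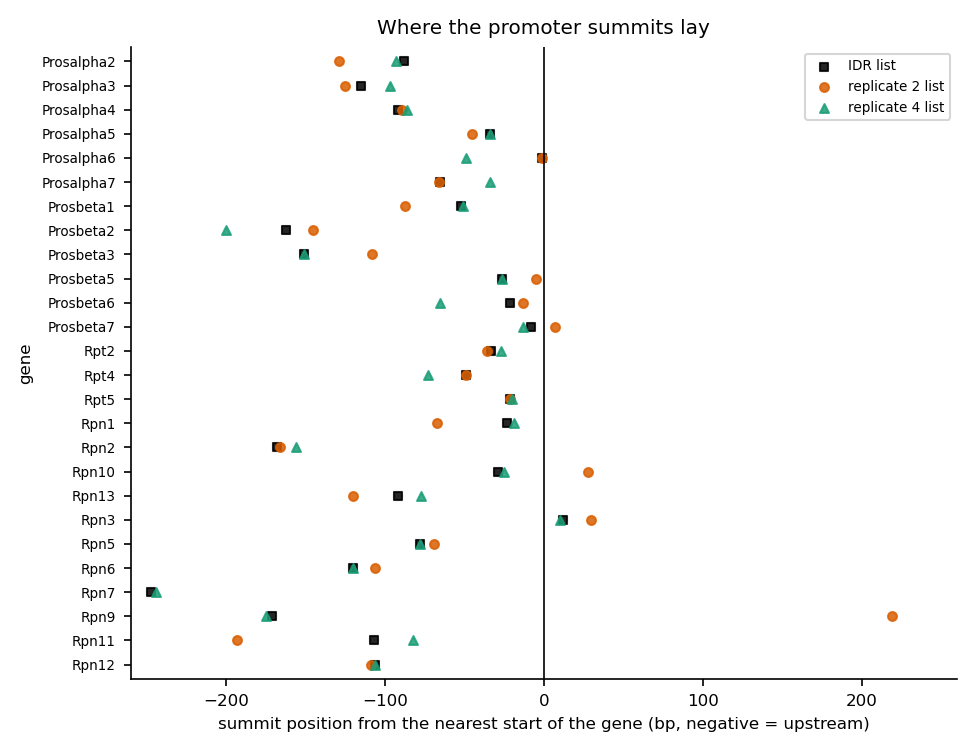
Position of the strongest promoter summit of the 26 bound genes (horizontal axis, bp from the nearest TSS of the gene, negative is upstream) in the IDR, replicate 2 and replicate 4 lists. The summits of the replicates lie a median of 24 bp apart and at most 111 bp, at Rpn11; the replicate 2 points of Rpn9 (219 bp) and Rpn10 (28 bp) are measured from another annotated TSS than the other points of these genes.

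Most of these starts face another gene. In 17 of the 26 (65.4%) a protein-coding gene on the opposite strand also had a TSS within 250 bp of the same summit, and over all bound protein-coding genes it was 44.7%. In 8 of the 26 (30.8%, beside 23.2%) the other gene's start was the nearer one. They included Prosalpha4 with kat80, Prosbeta2 with mRpL39, Prosbeta3 with Iru, Rpn2 with Slbp, Rpn5 with Hat1, Rpn7 with AP-2mu and Rpt4 with mldr. Slbp encodes the protein that binds the stem-loop of histone mRNAs, and its start was 90 bp from a summit that lay 168 bp from the start of Rpn2. At Rpt5 the start of RanBP3 was equally near, at 21 bp.

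The leading gene Rpn3 shared its summit with l(2)37Bb, whose start was 190 bp away against 12 bp for Rpn3. This summit lay inside Rpn3 and not between the starts of the pair. A summit within 250 bp of the starts of a pair of genes cannot be assigned to either gene. Counting a summit only for the gene with the nearest start left 18 canonical genes (56.2%), beside 24.9% of all protein-coding genes. The genes with a summit of their own numbered 9. They were Prosalpha2, Prosalpha3, Prosalpha5, Prosbeta6, Prosbeta7, Rpn1, Rpn10, Rpn11 and Rpn12.

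The summits of the proteasome genes ranged from mixed to AT-rich sequence, as in the windows of Prosalpha6 and Prosbeta2. A or T made up a median of 67.8% of the bases within 50 bp of the 26 summits (range 48.5 to 79.2%), beside 64.4% over all bound genes. Over all bound genes the share fell with rank, from 71.3% in the strongest part of the list, cut into 3 equal parts by rank, to 61.4% and 59.4%. Among proteasome genes the same parts had 73.3% (5 genes), 69.3% (11 genes) and 55.4% (10 genes). Exceptions stood out at both ends. Prosalpha4 (79.2%), Prosalpha2 (78.2%) and Rpn7 (78.2%) were rich in A and T at ranks 4922, 5306 and 6550, and Prosbeta1 at rank 2405 had 58.4%. Promoters of paralogs were as rich in A and T (median 67.3%) as those of canonical genes (66.5%), while all protein-coding promoters had 62.0%. These shares are descriptions over genes that share the same libraries.

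**Figure D5:**
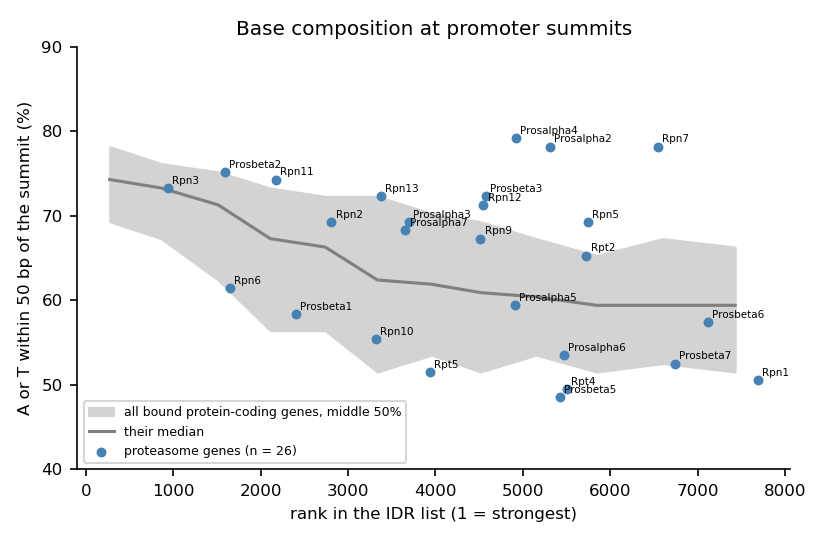
Share of A or T within 50 bp of the summit (vertical axis, percent) against rank in the IDR list (horizontal axis, 1 is strongest) for the 26 bound proteasome genes (points) and all 4416 bound protein-coding genes (line, median; band, middle 50%). The line falls with rank; points of proteasome genes lie between 48.5 and 79.2%.

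Promoters from 250 bases before to 50 after the start were searched on both strands for short words. TATCGATA, the DRE, was in 12 of 32 canonical promoters (37.5%), in 0 of 16 paralog promoters and in 9.36% of all protein-coding promoters. The 12 were Prosalpha3, Prosalpha5, Prosalpha6, Prosbeta1, Prosbeta2, Prosbeta6, Rpn3, Rpn7, Rpn9, Rpn12, Rpn13 and Rpt5. All of these genes had an IDR promoter summit at some start, beside 81.2% of the 32 canonical genes. At Rpn9 the IDR summit was counted at an inner start, 171 bp away. It lay more than 250 bp from the outermost start, where the word was found. The bound share of all protein-coding genes with a DRE was not counted, so a link between the DRE and binding was not tested. The DRE was often not at the summit. Within 50 bp of the summit it was found in 5 of 26 (19.2%, beside 6.95% of all bound genes), at Prosalpha3, Prosalpha5, Prosalpha6, Prosbeta6 and Rpt5. In Prosbeta2 the word began 10 bases before the start, while the summit was 162 bp upstream.

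CGATA, the core of the insulator protein BEAF-32's site, lies within TATCGATA, so the counts overlap. It was in 27 of 32 canonical promoters (84.4%), 8 of 16 paralog promoters (50%) and 47.4% of all. GGTCACAC, the core of the element known as Ohler motif 1, was in 5 canonical promoters (15.6%; Prosalpha2, Prosalpha4, Prosbeta3, Rpn1 and Rpn7), 0 paralogs and 7.70% of all. TGACNNNGC, the antioxidant response element through which the factor encoded by cnc acts, was in 5 canonical promoters (15.6%), 1 paralog (6.25%) and 8.63% of all. The canonical ones were Prosalpha2, Prosbeta3, Rpn1, Rpn7 and Rpt6, and all but Rpt6 also held GGTCACAC. At Prosbeta3 and Rpn1 the matches share bases, so these counts are not separate. GAGAG, the word read by GAGA factor, had its larger share in the paralogs, with 3 canonical promoters (9.38%), 6 paralogs (37.5%) and 29.7% of all. TATAAA was in 13 canonical promoters (40.6%), 5 paralogs (31.2%) and 45.8% of all. CAGCTG, an E-box core, was in 1 canonical promoter (3.12%), 1 paralog (6.25%) and 17.7% of all. CGGACGT and GGTCCG, cores of sites described for human HINFP, were in no member promoter and in 1.53% and 3.59% of all. A match is only the presence of these letters.

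Genes of the wider ubiquitin and proteasome pathway were also bound more often than the background of 31.7%. Of 22 listed genes 21 were matched in the annotation, and 16 of them (76.2%) had an IDR promoter summit, with a median rank of 4987.5. In the pooled list it was 20 (95.2%), beside 48.9% of all protein-coding genes. In replicate 2 it was also 20, beside 49.3%, and in replicate 4 it was 19 (90.5%), beside 48.5%. Pomp, the chaperone that matures the 20S core, had the strongest summit at rank 634 with signal 731.3, above that of every proteasome gene. It lay 210 bp upstream of the Pomp start, and its peak did not reach the start. The pooled summit nearest to that start, 4 bp away, had rank 11643, outside the IDR list. The deubiquitinase Uch-L5 was at rank 2177, the unfoldase TER94 at 2499 and its cofactor Npl4 at 5020.

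The ubiquitin-fusion genes RpS27A, Ubi-p63E and Ubi-p5E had ranks 4214, 6620 and 6904, and the ubiquitin-conjugating enzyme eff had 2959. Ubi-p63E differed between the replicates, with rank 4330 in replicate 2 and 13022 in replicate 4. In replicate 4 its strongest summit lay near another of its starts. The shuttle factors rngo and Rad23 were at 4955 and 5604, the deubiquitinase Usp14 at 6424 and the small lid subunit Sem1 at 7283. The transcription factor cnc, homologous to human NRF1 and NRF2, was near the list's end at rank 7554, its partner maf-S at 7607 and its inhibitor Keap1 at 4485. The F-box gene ntc was at 2992, with the start of IntS10 nearer to that summit (112 bp against 139 bp for ntc). Of the 16 bound pathway genes, 9 (56.2%) had a summit within 250 bp of another gene's start, beside 48.9% of all bound protein-coding genes. Such summits cannot be assigned to either gene. Not in the IDR list at their starts were PI31, a proteasome regulator, Uba1, the ubiquitin-activating enzyme, Ubqn, a shuttle factor, REG, a core activator, and RpL40. Of these Uba1 had no promoter summit in any list, with its nearest IDR summit 256 bp away, and PI31 had one 297 bp away.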

How the data were processed

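The members and gene lists were chosen with earlier results of these data known. The deposited positions (starts, ends and summit offsets, with no normalization) were read from 4 peak lists in dm6 as the authors left them, and the rank of a peak follows the authors' deposited signal value, whose scale the sources do not define. The −log10 q column that the authors deposited was looked at but not used. The replicate and pooled lists derive from alignments with 1 control, per the deposited provenance notes. No aligner or caller is named there, nor given in the sources used here. Genes came from Ensembl 115 for BDGP6.54, and 99.9% of annotated start codons read ATG in the RefSeq sequence of the same assembly. Pathway symbols numbered 22, of which 1 was not matched. A summit within 250 bp of a TSS was counted for every gene it reached. No significance test was run, because there was 1 group; counts stand beside the share of all protein-coding genes. Every member is named, with ranks per list for those with a promoter summit; sequences shown are the leading summits outside arm 2R, DRE examples and 1 canonical gene with its paralogs. Promoters and motifs were read at the 5′-most TSS of a gene, and proteins were aligned globally from translated coding sequences. The alternatives were the distance, the list, leaving out each replicate, the peak interval, the nearest gene and the symbol endings; the single-copy count was added after seeing the data, as were base composition and distance to the nearest summit. The counting was tested on simulated peaks. Tools were Python 3.11.15, numpy 2.4.6, scipy 1.17.1, Biopython 1.88 and matplotlib 3.10.9. Ranks of members are printed for each replicate that lists a promoter summit. Ranks of pathway genes are those of the IDR list, apart from the replicate ranks of Ubi-p63E. The partner gene of 1 shared summit is not reported here.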

Additional observations from a re-analysis of the deposited data

How the results depend on the processing

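Within 100 bp of a TSS the IDR count was 17 for canonical genes, 9 for pathway genes and 2537 (18.2%) for all protein-coding genes. In the strongest 50% of the IDR list it was 11, 5 and 2392 (17.2%), and no paralog was bound under either setting. In the whole pooled, replicate 2 and replicate 4 lists it was 2, 2 and 1 for paralogs and 6821, 6878 and 6757 for all protein-coding genes. Taking as many of the strongest peaks of 1 replicate as the IDR list holds gave 22 to 24 canonical genes, 0 paralogs, 14 pathway genes and 4234 to 4471 protein-coding genes; without replicate 4, Prosbeta6, Rpn1, Rpn5 and Rpn7 were lost, and without replicate 2, Prosbeta5 and Prosbeta7. The other alternatives left the canonical count within 1.5 times of 26. It was 23 (71.9%) where the peak had to cover the TSS, beside 26.7% of all protein-coding genes. For the nearest gene only it was 18 (56.2%), beside 24.9%. At 500 or 1000 bp it was 27 (84.4%), with Rpn8 gained, beside 36.5% and 40.1% of all protein-coding genes. With the literal endings, Prosalpha4T1 and Prosalpha4T2 counted as canonical and the counts were 26 of 34 and 0 of 14. No paired analysis was possible because the labels give 1 group. With read depth unknown, a missing summit shows that none was listed, not that binding was absent.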
